A study of Mus musculus with 7 samples.

Results

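The transcripts of 10 mouse genes that receive or send Wnt signals were followed across the states of bone marrow LSK cells and between libraries labelled B4galt1 knockout (KO) and wild type (WT). LSK cells lack lineage markers and carry the surface proteins Sca-1 and cKit, a sort that holds blood stem cells and early progenitors. The genes were picked by symbol from the 32285 genes in the count tables: the frizzled receptors Fzd3, Fzd5, Fzd6 and Fzd7, the kinase-like receptors Ror1, Ror2 and Ryk, the co-receptors Lrp5 and Lrp6, and Wls, which carries Wnt proteins out of the sending cell. All 10 were found. There were 3 KO libraries, of genotype 129S1/C57Bl/6, B4-/- (described as full knockouts), and 4 WT libraries of genotype 129S1/C57Bl/6; ages, sexes and the number of animals per library were not given in the sources used here. B4galt1 adds galactose to protein sugar chains, and the series as titled is about sugar chains, megakaryocyte-directed stem cells and a Wnt and Muc13 axis.

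Wnt proteins are secreted, lipid-modified ligands. A frizzled receptor together with Lrp5 or Lrp6 passes the signal that stabilises beta-catenin, which then acts with TCF/LEF factors on target genes. Ror1, Ror2 and Ryk bind Wnt ligands such as Wnt5a and are known mainly for signals that run without beta-catenin, through cell polarity and calcium. In the marrow both kinds of signal have been tied to how stem cells rest, divide and age.

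Libraries held 14970791 to 89747946 unique molecular identifiers (UMIs, counted transcripts), and 24430 cells were kept, 1172 to 8862 per library. The cell barcodes fell into 2 lists of sequences that cut across the labels: list B, used in KO replicate 3 with WT replicate 4, and list A, used in the other 5 libraries. Ribosomal protein genes took 14.7 to 22.3% of UMIs in list A and 31.6 to 31.8% in list B, and 6 of the 10 genes had lower levels in both list B libraries than in every list A library, against 40.5% of the genes tested. The label was therefore compared with the list as a term, and values are given by list. At most 68 kept barcodes were shared by a library pair, 0.992% of the smaller library, and 0 cells had identical counts. B4galt1 itself stood at 51.3, 55.6 and 27.4 UMIs per 1000000 UMIs of the library or state (CPM) in KO replicates 1 to 3 and at 56.5, 69.2, 56.7 and 34.8 in WT replicates 1 to 4. The part of the gene that was removed is not given in the sources used here, so these transcripts do not check the labels. Kit, which encodes cKit, was detected at 137 to 311 CPM and Ly6a, which encodes Sca-1, at 16.6 to 48.2 CPM.

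Cells were assigned to 10 states by UMIs of marker genes, none of which was among the receptor genes. The gates were ordered, and a cell took the first gate that it passed. A cell was called stem-gated with at least 3 of 9 stem cell genes such as Procr, Hlf and Mecom and none of the lineage gates, which came before. Flt3-gated cells, a state of multipotent progenitors, had Flt3 and no earlier gate, the stem gate included. Stem-gated cells could hold Flt3 UMIs. Stem-gated cells numbered 8216, Flt3-gated cells 3163, lymphoid-gated cells 595 and granulocyte-monocyte-gated cells 7337. The stem cell genes, which set the stem gate, summed to 2217 CPM in it on average over libraries, to 1119 in monocyte-dendritic-gated, 776 in Flt3-gated and 507 in granulocyte-monocyte-gated cells. The first value is fixed by the gate itself, and Flt3-gated cells are cells that failed the stem gate. Neither value is a check of the stem gate. Depth differed between gates, and more UMIs make a gate easier to pass. The median cell of a library held 5156.5 to 9391 UMIs in the stem gate, beside 8046 to 11083.5 over all kept cells. It held 12546 to 16816 in the granulocyte-monocyte gate, where 1406 of the 1919 cells of KO replicate 1 passed more than 1 gate.

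The promoters of Ror1, Ror2 and Ryk are shown because these receptors of the branches without beta-catenin had the 3 largest differences between stem-gated and granulocyte-monocyte-gated cells. Each runs from 250 bases before to 50 bases after the gene's start, on the gene's strand, from RefSeq on GRCm38.p6, the mm10 build named in the submitters' processing notes. CG pairs are in capitals.
Ror1, chr4:100095541-100095840, plus strand: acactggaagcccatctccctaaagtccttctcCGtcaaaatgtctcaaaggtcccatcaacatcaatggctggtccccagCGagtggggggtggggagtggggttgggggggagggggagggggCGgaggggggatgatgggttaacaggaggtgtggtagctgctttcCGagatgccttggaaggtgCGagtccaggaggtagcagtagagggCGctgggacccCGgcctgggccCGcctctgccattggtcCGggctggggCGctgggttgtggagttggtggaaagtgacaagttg
Ror2, chr13:53286075-53286374, minus strand: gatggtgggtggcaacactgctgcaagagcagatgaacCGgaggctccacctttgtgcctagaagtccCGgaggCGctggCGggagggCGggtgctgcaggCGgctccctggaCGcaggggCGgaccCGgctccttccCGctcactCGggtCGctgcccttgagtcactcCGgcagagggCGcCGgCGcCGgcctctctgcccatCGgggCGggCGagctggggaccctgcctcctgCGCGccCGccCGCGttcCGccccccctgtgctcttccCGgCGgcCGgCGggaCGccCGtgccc
Ryk, chr9:102834670-102834969, plus strand: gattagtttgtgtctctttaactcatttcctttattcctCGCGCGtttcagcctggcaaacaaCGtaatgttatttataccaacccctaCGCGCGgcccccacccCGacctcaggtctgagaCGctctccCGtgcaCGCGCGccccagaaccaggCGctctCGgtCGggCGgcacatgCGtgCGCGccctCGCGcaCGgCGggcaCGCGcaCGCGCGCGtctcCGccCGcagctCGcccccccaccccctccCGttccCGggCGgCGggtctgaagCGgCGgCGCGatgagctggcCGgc
The windows held 10 CG pairs for Ror1, 32 for Ror2 and 42 for Ryk, against a median of 7 over 32851 promoters, 43.5% of which held at least 10. Of the 10 genes, 6 had a promoter in the table (Fzd5, Fzd7, Ror1, Ror2, Ryk and Wls), and their GC content ran from 58.0 to 75.7% against a median of 52.7%. A TCF/LEF motif, searched on both strands as CTTTGAT and its forms ending in AA, TT and TA, was found in the Fzd7 window alone, 130 bases before the start, while 16.9% of all promoters held one. The GATA motif AGATAA, the RUNX motif TGTGGTT and the E-box CAGCTG were in none of the 6 windows and in 11.2, 5.27 and 16.3% of all promoters.

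In the annotation of GRCm38, Ror1 spans chr4:100095791-100444765, Ror2 chr13:53109312-53286124 and Ryk chr9:102834917-102908305. Fzd3 lies at chr14:65192449-65262463, Fzd5 at chr1:64730558-64737751, Fzd6 at chr15:39006034-39038188 and Fzd7 at chr1:59482424-59486955. Lrp5 lies at chr19:3584828-3686564, Lrp6 at chr6:134446476-134566965 and Wls at chr3:159839672-159938664.

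The states were compared within libraries, which asks where among LSK cells each receptor is transcribed. Of the 9 genes that could be tested, 9 differed between gated states, where 73.5% of all genes did, with edgeR adjusted p from 3.38e-16 for Ryk to 0.0383 for Fzd7; Fzd5 was too low to be tested. Stem-gated cells had the higher level of 7 of 9 genes against granulocyte-monocyte-gated cells and the lower level of 0, where 28.9% of all genes were called higher and 29.1% lower. Against lymphoid-gated cells 5 of 9 were higher and 1 lower, where 15.6% of all genes were called higher and 15.8% lower. Against Flt3-gated cells 4 of 9 were higher and 0 lower, where 6.81% of all genes were called higher and 4.83% lower. The median log2 difference of the 9 genes was 1.37, 1.30 and 0.59 in the same order, and that of all genes lay between -0.01 and 0.01.

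**Figure D1:**
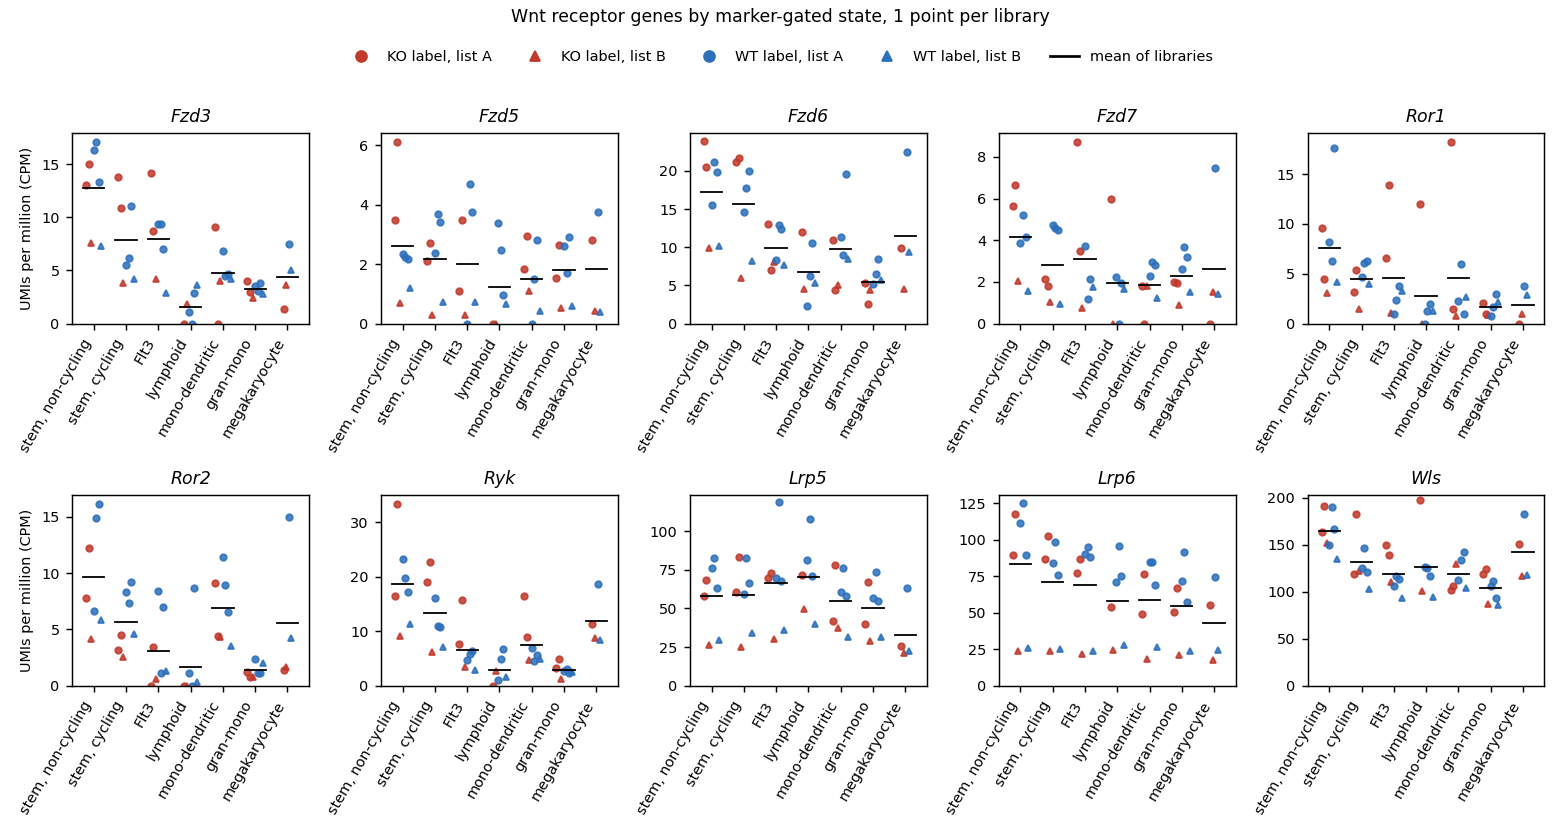
Level of each gene in CPM (vertical axes, each with its own scale) in 7 gated states, 1 point per library with at least 20 cells; circles are list A, triangles list B, red KO and blue WT labels, and black bars the means over libraries. Ror2 and Ryk stand highest in non-cycling stem-gated cells and near the bottom in granulocyte-monocyte-gated cells, whereas Lrp5 has like means in the stem and granulocyte-monocyte gates, and for Lrp6 the triangles lie below every circle of the same state.

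Ryk, a Wnt-binding receptor whose kinase domain is inactive, had the smallest p among the 9 genes in the contrasts with granulocyte-monocyte-gated, lymphoid-gated and Flt3-gated cells. Over the 7 libraries its level in stem-gated cells ran from 8.10 CPM through a median of 14.9 to 29.3, and in granulocyte-monocyte-gated cells from 1.31 through 2.62 to 4.85. The groups did not overlap. The log2 difference was 2.29 ± 0.16 (SE, edgeR adjusted p = 5.02e-16). Against Flt3-gated cells, at 2.81 to 15.7 CPM, it was 1.42 ± 0.20 (edgeR adjusted p = 7.00e-07), and against lymphoid-gated cells 2.02 ± 0.31 (edgeR adjusted p = 6.78e-07). In the order of mean levels megakaryocyte-gated cells followed the stem gate, with 11.8 ± 4.77 CPM (SD, n = 4 libraries) against 16.2 ± 7.03 (SD, n = 7), a gap within the spread. These means rest on different libraries. In KO replicates 1 and 3 and WT replicates 3 and 4, megakaryocyte-gated cells had 11.3, 8.78, 18.7 and 8.41 CPM. Stem-gated cells of the same libraries had 17.3, 8.10, 14.3 and 9.76 CPM, so neither gate was higher throughout. Neutrophil-granule-gated cells held 0 Ryk UMIs in the 3 libraries with at least 20 such cells, which allows up to 1.45, 12.7 and 17.9 CPM in them.

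Ror2, a receptor tyrosine kinase best known as a receptor for Wnt5a, stood at 3.55, 7.43 and 12.99 CPM in stem-gated cells (lowest, median and highest of 7 libraries). In granulocyte-monocyte-gated cells it stood at 0.792, 1.17 and 2.39 CPM, below every stem-gated value. The log2 difference was 2.13 ± 0.28 (SE, edgeR adjusted p = 8.87e-09). Against Flt3-gated cells, where the level ran from 0 to 8.39 CPM and rested on 45 UMIs in all, the difference was 1.61 ± 0.36 (edgeR adjusted p = 0.000956), a call lost with list A alone (1.12, edgeR adjusted p = 0.165). KO replicate 1 had 0 Ror2 UMIs in its Flt3-gated cells, which allows up to 3.27 CPM. Monocyte-dendritic-gated cells came next to the stem gate with 6.90 ± 2.98 CPM (SD, n = 7) against 7.97 ± 3.26, a gap within the spread; these cells also held the stem cell genes at 1119 CPM, and the part of stem-like cells in this level was not tested.

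Ror1, the sister kinase of Ror2, had 2.50, 6.21 and 12.5 CPM in stem-gated cells (lowest, median and highest) and 0.716, 1.70 and 2.93 CPM in granulocyte-monocyte-gated cells. The ranges overlapped, since the lowest stem-gated value came from list B. The log2 difference was 1.74 ± 0.29 (SE, edgeR adjusted p = 1.68e-06), and against lymphoid-gated cells it was 2.12 ± 0.57 (edgeR adjusted p = 0.00291), a call lost with list A alone. Against Flt3-gated cells the estimate of 0.78 ± 0.35 did not pass (edgeR adjusted p = 0.163).

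Among the frizzled receptors, Fzd6 and Fzd3 were higher in the stem gate than in the granulocyte-monocyte and lymphoid gates. Fzd7 did not pass in any of the 3 contrasts. Fzd6, which acts in planar cell polarity, had 8.43, 19.3 and 23.1 CPM in stem-gated cells and 2.63, 5.29 and 8.48 in granulocyte-monocyte-gated cells, with a log2 difference of 1.37 ± 0.16 (SE, edgeR adjusted p = 6.93e-10). It was also higher than in lymphoid-gated cells, by 1.30 ± 0.28, and than in Flt3-gated cells, by 0.59 ± 0.19 (edgeR adjusted p = 0.000232 and 0.0365). The call against Flt3-gated cells was lost in 10 of 15 alternatives, among them leaving out any library but KO replicate 3 (edgeR adjusted p = 0.0601 to 0.0866). Megakaryocyte-gated cells had 9.89, 4.49, 22.4 and 9.32 CPM of Fzd6 in KO replicates 1 and 3 and WT replicates 3 and 4. The value of WT replicate 3 came from 6 UMIs. Stem-gated cells of the same libraries had 23.1, 8.43, 19.9 and 9.45 CPM, so the stem gate was not higher throughout. Fzd3, studied mostly in axon guidance, had 6.12, 11.1 and 13.4 CPM in the stem gate and 2.41, 3.11 and 4.02 in the granulocyte-monocyte gate, without overlap. Its log2 differences were 1.46 ± 0.20 against granulocyte-monocyte-gated and 1.85 ± 0.39 against lymphoid-gated cells (edgeR adjusted p = 2.67e-08 and 0.000131). Against Flt3-gated cells its estimate was 0.59 ± 0.24 (edgeR adjusted p = 0.112). Cells that passed no gate had 10.9 ± 8.02 CPM of Fzd3 (SD, n = 7), beside 10.5 ± 3.11 in the stem gate. Fzd7 ran from 1.33 to 4.87 CPM in the stem gate and from 0.914 to 3.68 in the granulocyte-monocyte gate, ranges that overlapped (log2 difference 0.55 ± 0.25, edgeR adjusted p = 0.0550). Its estimates against lymphoid-gated and Flt3-gated cells were 0.96 ± 0.49 and 0.28 ± 0.32 (edgeR adjusted p = 0.128 and 0.694). Fzd5 rested on 339 UMIs in all kept cells, at 0.475 to 3.13 CPM.

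The co-receptors of the beta-catenin branch were spread more evenly. Lrp5 had 25.8, 64.7 and 82.7 CPM in stem-gated cells and 29.2, 54.7 and 73.5 in granulocyte-monocyte-gated cells, with a log2 difference of 0.03 ± 0.08 (SE, edgeR adjusted p = 0.961). It was the only one of the genes called lower in the stem gate in any of these contrasts: lymphoid-gated cells had 39.8 to 108 CPM, and the stem-minus-lymphoid difference was -0.45 ± 0.10 (edgeR adjusted p = 0.000435), a call lost with list A alone. Against Flt3-gated cells its estimate was -0.23 ± 0.09 (edgeR adjusted p = 0.0793). Lrp6 had 23.6, 88.8 and 112 CPM in the stem gate and 21.3, 57.3 and 91.3 in the granulocyte-monocyte gate, and its difference within libraries was 0.30 ± 0.07 (edgeR adjusted p = 0.000380). Against lymphoid-gated and Flt3-gated cells it was 0.14 ± 0.10 and 0.10 ± 0.08 (edgeR adjusted p = 0.319 and 0.535). For Lrp6 the lists stood further apart than the states: stem-gated cells had 23.6 and 25.3 CPM in the list B libraries and 83.0 to 112 in those of list A. Wls, the carrier of Wnt proteins, was detected in every library and state at 35.5 CPM or more, with 123, 146 and 188 CPM in stem-gated cells. It was higher there than in granulocyte-monocyte-gated cells (86.1 to 125 CPM) by 0.41 ± 0.09 and than in Flt3-gated cells (93.1 to 149 CPM) by 0.31 ± 0.10 (edgeR adjusted p = 0.000159 and 0.0286). The latter call was lost in 6 of 15 alternatives. These were list A alone (edgeR adjusted p = 0.244), and without KO replicate 2 or 3 or WT replicate 1, 2 or 4 (edgeR adjusted p = 0.0565 to 0.103). Against lymphoid-gated cells its estimate was 0.22 ± 0.11 (edgeR adjusted p = 0.126).

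**Figure D2:**
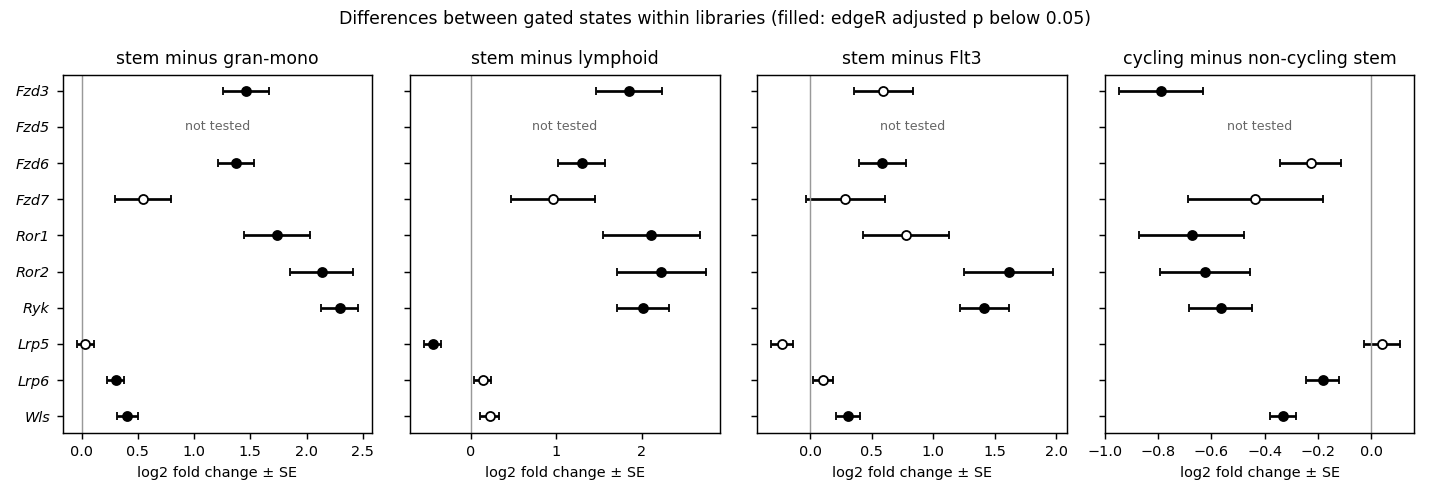
Log2 fold change with its standard error (horizontal axes, each with its own range) of each gene in 3 contrasts of gated states and between cycling and non-cycling stem-gated cells; filled points passed the edgeR test at an adjusted p of 0.05 over all genes. Ror2 and Ryk lie right of 0 with filled points in all 3 contrasts of the stem gate, and Lrp5 is called left of 0 against lymphoid-gated cells.

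Fewer libraries or other gates moved the Flt3 contrast most. With list A alone 1 gene passed in place of 4, and without WT replicate 1, 2 or 4 there were 2, while gates set on cells thinned to 3000 UMIs, or with 1 more marker, gave 7. The count against granulocyte-monocyte-gated cells stayed at 7 in every alternative but DESeq2, which gave 8.

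Across the gated states, the means ordered the stem gate at the top for Fzd3, Fzd6, Ror1, Ror2, Ryk, Lrp6 and Wls, and the lymphoid gate at the top for Lrp5. Each mean was taken over the libraries with at least 20 cells in that gate, which differed between gates. Neighbours in these orders lay within the larger of their SDs over libraries in all but 4 cases. Those were Ror1 and Ryk, each in the step down to the neutrophil granule gate, with 0 UMIs in the 3 libraries used. The others were Ror2 between the granulocyte-monocyte and the T, NK and innate lymphoid gates, and Lrp5 between the basophil and erythroid-leaning gates. For Wls, megakaryocyte-gated cells had 151, 117, 183 and 118 CPM in KO replicates 1 and 3 and WT replicates 3 and 4. Stem-gated cells of the same libraries had 150, 141, 146 and 123 CPM, so the stem gate was not higher throughout. The genes whose levels ran most like a receptor's over 51 library-by-state sums, centred within libraries, were Car2 (r = 0.89), Epb41 and Arhgef12 for Ryk, Tanc2 (r = 0.90), Zmynd11 and Ddx60 for Fzd6, and Cd27 (r = 0.96), Rnf220 and Nim1k for Lrp5. For Lrp6 they were Sfi1 (r = 0.90), Vps13a and Chd6, and for Wls Ddx60 (r = 0.80), Tspan14 and Smarca2. Among pairs of the 10 genes r ran from -0.33 for Fzd5 with Lrp5 to 0.79 for Fzd6 with Lrp6; it was 0.76 for Lrp5 with Lrp6, 0.67 for Fzd3 with Fzd6, 0.66 for Ror2 with Ryk and 0.51 for Ror1 with either. Sums share library, depth and gate, so these values are descriptions.

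Single cells seldom showed a receptor and a co-receptor together at this depth. Each cell was thinned to 3000 UMIs and gated again on the thinned counts, which left out shallower cells and kept 23712 of 24430. The shares below are means of the percentages of single libraries and are not pooled over cells. In the stem gate (5261 cells) 10.5 ± 3.14% (SD, n = 7 libraries) had a UMI of any of the 4 frizzled genes. There 31.8 ± 12.8% had one of Lrp5 or Lrp6, and 9.52 ± 2.85% one of Ror1, Ror2 or Ryk. A frizzled and an Lrp UMI fell in the same cell in 3.22 ± 1.91%, beside 3.65% for the product of the separate shares. Pooled over libraries, 115 of the 5261 cells held both. The 4207 granulocyte-monocyte-gated cells, at the same depth, had 3.93 ± 1.91% with a frizzled UMI, 26.3 ± 9.37% with an Lrp UMI and 1.16 ± 0.69% with a Ror or Ryk UMI. Free RNA can add such UMIs to any cell, and its part was not tested.

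Stem-gated cells were split by cell cycle genes such as Mki67 and Top2a into 2332 cycling and 5884 non-cycling cells, which compares resting with dividing cells of 1 gate. In cycling cells 6 of 9 tested genes were lower and 0 higher, where 25.2% of all genes were called lower and 22.5% higher. The count was 4 with gates on thinned cells and 5 to 7 in the other alternatives. Fzd3 had 3.86, 6.12 and 13.8 CPM in cycling cells and 7.31, 13.3 and 17.1 in non-cycling cells (lowest, median and highest of 7 libraries), ranges that overlapped between libraries, and its log2 difference within libraries was -0.79 ± 0.16 (SE, edgeR adjusted p = 4.54e-05). Ror1 differed by -0.67 ± 0.20, Ror2 by -0.62 ± 0.17 and Ryk by -0.57 ± 0.12 (edgeR adjusted p = 0.00411, 0.00200 and 8.18e-05). Wls differed by -0.33 ± 0.05 and Lrp6 by -0.18 ± 0.06 (edgeR adjusted p = 2.57e-07 and 0.0140). The Ror1 call was lost without WT replicate 3 (-0.42, edgeR adjusted p = 0.115) and with gates on thinned cells (-0.16, edgeR adjusted p = 0.630). The Lrp6 call was lost in 5 of 15 alternatives: DESeq2 (adjusted p = 0.0521) and, with edgeR, without WT replicate 1 or 2, with the stricter cell filter and with gates on thinned cells (adjusted p = 0.0671 to 0.147). Fzd6 and Fzd7 had estimates of -0.23 ± 0.11 and -0.43 ± 0.25 (edgeR adjusted p = 0.0952 and 0.149). Lrp5 was at 57.8 ± 22.1 CPM in non-cycling and 58.7 ± 22.3 in cycling cells (SD, n = 7), a log2 difference of 0.04 ± 0.07 (edgeR adjusted p = 0.640). Cycling cells held more UMIs per cell in all 7 libraries, and CPM sets each level against all other transcripts of the cell.

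The label was compared over all kept cells, which asks whether the libraries labelled KO differ in receptor transcripts. Only Ror2 passed, and it was lower under the KO label. It stood at 1.56, 2.43 and 1.56 CPM in KO replicates 1 to 3 and at 5.41, 6.15, 8.44 and 3.02 in WT replicates 1 to 4, so that every KO library lay below every WT library. Within list A the means were 2.00 ± 0.62 (SD, n = 2) and 6.67 ± 1.58 CPM (SD, n = 3), and within list B the values were 1.56 and 3.02 CPM. With the list as a term, KO minus WT came to -1.42 ± 0.27 on the log2 scale (SE, edgeR adjusted p = 0.0414). That made 1 of 10 genes called lower, where 0.637% of all genes were, and 1.11% in either direction; 3 reached an unadjusted p of 0.05, where 19.1% of all genes did. The call was lost when KO replicate 1 or 2 or WT replicate 1, 2 or 3 was left out (edgeR adjusted p = 0.0667 to 0.124) and kept without KO replicate 3 or WT replicate 4. It was also lost without the list as a term (edgeR adjusted p = 0.680) and with the stricter cell filter (edgeR adjusted p = 0.0663), with the log2 fold change between -1.69 and -1.19 in every alternative.

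Fzd6 and Ror1 were the other genes whose label groups did not overlap, a pattern seen in 3.62% of all genes tested for KO below WT; neither passed. Fzd6 had 6.50, 6.26 and 5.49 CPM in KO replicates 1 to 3 and 9.67, 12.9, 15.3 and 7.49 in WT replicates 1 to 4 (log2 fold change -0.72 ± 0.19, edgeR adjusted p = 0.104), though DESeq2 called it (adjusted p = 0.0203). Ror1 had 2.50, 2.67 and 1.23 CPM against 3.09, 3.94, 7.63 and 2.89 (log2 fold change -0.94 ± 0.31, edgeR adjusted p = 0.160). For the remaining genes the log2 fold changes were -0.41 for Fzd7, -0.39 for Fzd3, -0.35 for Ryk, -0.28 for Lrp6, -0.20 for Lrp5, -0.15 for Fzd5 and 0.11 for Wls, so that 9 of the 10 were negative. The median over the 10 was -0.37, beside 0.01 over all genes.

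**Figure D3:**
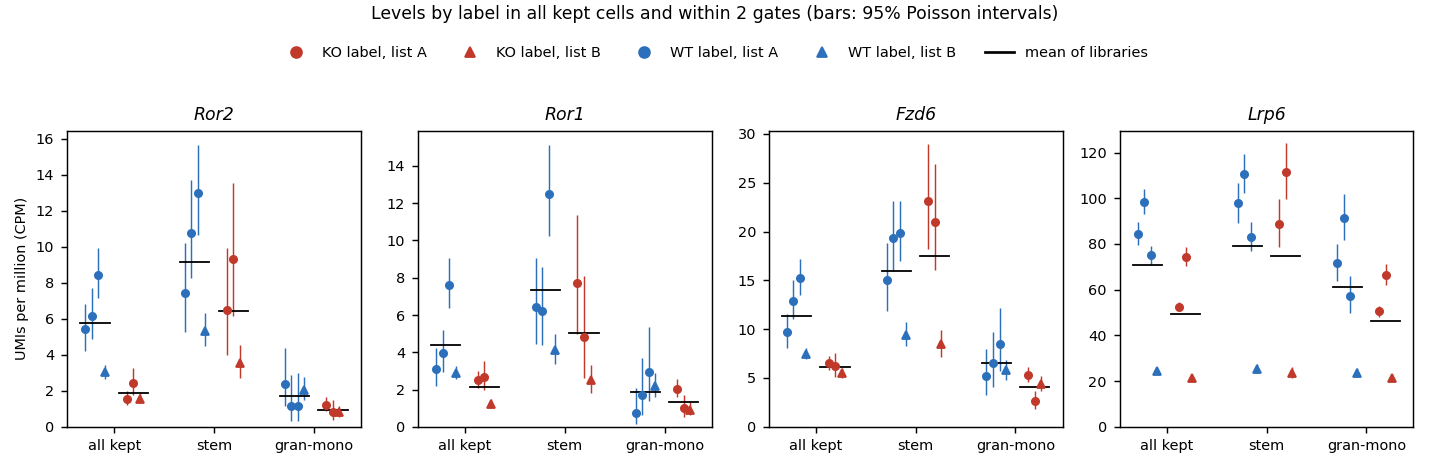
Level of Ror2, Ror1, Fzd6 and Lrp6 in CPM (vertical axes, each with its own scale) in every library, over all kept cells and within the stem and granulocyte-monocyte gates; bars on points are Poisson intervals of 95%, which cover counting error only, and black bars are means. The KO points of Ror2 lie below all WT points over all kept cells and overlap with them in the stem gate, and both triangles of Lrp6 lie below every circle under either label.

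The mix of states differed between the labels in these libraries, though no state passed after adjustment over 11 states. Stem-gated cells made up 25.1 ± 8.01% of cells under the KO label and 49.4 ± 10.6% under WT (SD, n = 3 and 4; two-sided exact permutation p = 0.0571, adjusted over 11 states 0.157). Granulocyte-monocyte-gated cells made up 48.7 ± 14.9% and 17.5 ± 3.20% (exact permutation p = 0.0286, the smallest that 35 splits can give, adjusted 0.157). In list A the stem share was 22.8% against 54.3%, and in list B 29.7% against 34.5%. The granulocyte-monocyte share was 56.6% against 17.2% in list A and 32.9% against 18.3% in list B. A sum over all kept cells cannot tell fewer cells of a state from fewer transcripts per cell.

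Within gates no receptor gene passed. In stem-gated cells 0 of 10 were called, where 0.116% of all genes were, and 0 of the 10 reached an unadjusted p of 0.05, where 5.42% did; DESeq2 also called 0. Ror2 had 6.47, 9.29 and 3.55 CPM in KO replicates 1 to 3 and 7.43, 10.7, 12.99 and 5.33 in WT replicates 1 to 4, groups that overlapped (log2 fold change -0.49 ± 0.25, edgeR adjusted p = 0.990). Fzd6 stood at 23.1, 21.0 and 8.43 CPM against 15.1, 19.3, 19.9 and 9.45, with a log2 fold change of 0.13 ± 0.17 (edgeR adjusted p = 0.999). The other estimates ran from -0.55 ± 0.32 for Ror1 and -0.16 ± 0.14 for Lrp5 through Lrp6 at -0.00022, Fzd5 at 0.09, Fzd3 at 0.14, Fzd7 at 0.15 and Wls at 0.18 to 0.24 ± 0.23 for Ryk. The median over the 10 genes was 0.11, beside -0.01 over all genes. In granulocyte-monocyte-gated cells 0 of 10 were called, where 0.176% of all genes were, with 0 at an unadjusted p of 0.05 (11.5% of all genes) and 0 by DESeq2. Ror2 had the lowest estimate there, -0.84 ± 0.42 (edgeR adjusted p = 0.475), on 140 UMIs in all. The other estimates were -0.62 for Fzd7, -0.54 for Fzd6, -0.48 for Ror1, -0.22 for Lrp6, -0.19 for Fzd5, -0.13 for Lrp5, -0.01 for Fzd3, 0.12 for Ryk and 0.22 for Wls. In Flt3-gated cells 0 of 5 tested genes were called and in lymphoid-gated cells 0 of 4, where 0.302% and 0.0731% of all genes were, again with 0 at an unadjusted p of 0.05 (4.92% and 4.91% of all genes) and 0 by DESeq2; KO replicate 2 had 13 lymphoid-gated cells and was left out of that fit. The Flt3-gated estimates were 0.51 ± 0.34 for Fzd3, -0.02 ± 0.31 for Fzd6, -0.25 ± 0.20 for Lrp5, -0.15 ± 0.16 for Lrp6 and 0.31 ± 0.15 for Wls. The lymphoid-gated ones were 0.14 ± 0.88 for Fzd6, 0.06 ± 0.28 for Lrp5, -0.36 ± 0.31 for Lrp6 and 0.35 ± 0.23 for Wls. The difference between the label effects in stem-gated and Flt3-gated cells was called for 0 of 10 genes, where 0.0234% of all genes were, with 0 at an unadjusted p of 0.05 (3.92% of all genes) and 0 by DESeq2. For Ror2 that difference was 1.16 ± 0.70 (edgeR adjusted p = 1.00), and the others ran from -0.67 for Ror1, -0.48 for Ryk and -0.36 for Fzd3 through Wls, Fzd6, Fzd7, Lrp5 and Lrp6, between -0.09 and 0.15, to 0.75 for Fzd5.

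Cycling stem-gated cells were the one split of the stem gate in which the Ror2 groups did not overlap. The values were 3.18, 4.53 and 2.52 CPM in KO replicates 1 to 3, from 3, 5 and 17 UMIs, and 8.28, 7.35, 9.20 and 4.57 in WT replicates 1 to 4. In non-cycling stem-gated cells they were 7.83, 12.2 and 4.17 against 6.60, 14.9, 16.1 and 5.80, and overlapped. The label was not tested within these splits, and the split was picked out after its values were seen.

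To set the levels on an equal footing, each library was recomputed with 1 fixed mix of the 4 gates that held at least 20 cells in every library, a step added after the data had been seen. The stem gate held 8.37 to 29.9% of the UMIs of these gates in KO libraries and 37.9 to 56.9% in WT libraries, and was fixed at 35.8%. In list A the log2 ratio of KO to WT for Ror2 went from -1.76 to -0.51, for Fzd6 from -1.05 to -0.05, for Ror1 from -1.12 to 0.08 and for Ryk from -0.50 to 0.60. KO replicate 2 stood highest in that Ryk value, with 14.8 CPM under the fixed mix against 9.47 in KO replicate 1 and 7.20 to 9.19 in the WT libraries of list A. In list B, with 1 library a label, Ror2 went from -0.91 to -0.71, Ror1 from -1.19 to -1.02 and Ryk from -0.58 to -0.35. Ryk and Ror1 thus differed in sign between the lists under the fixed mix. So did Fzd3 (0.18 in list A, -0.03 in list B) and Fzd5 (0.16 in list A, -0.45 in list B). Lrp5 and Lrp6 lay between -0.17 and -0.14 in both lists under the fixed mix, from -0.44 to -0.16 before it.

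**Figure D4:**
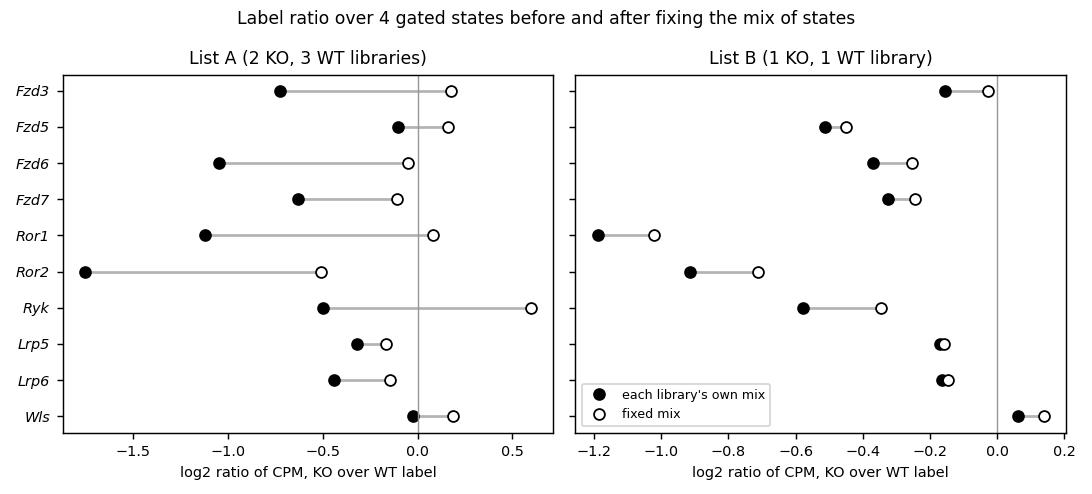
Log2 ratio of KO to WT levels (horizontal axes, each with its own range) of each gene over 4 gated states, with each library's own mix of states (filled) and with 1 fixed mix (open), in list A and list B; no error is shown, since list B has 1 library a label. In list A the open points lie near 0 for Fzd6 and Ror1 and at -0.51 for Ror2.

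Markers of other cells were read beside the Ror2 result. The 5 endothelial markers summed to 7.91 to 21.2 CPM under the KO label and 23.4 to 36.7 under WT over all kept cells, and to 28.1 to 38.9 and 32.1 to 49.8 in stem-gated cells, where Cdh5, the endothelial cadherin, was at 0. The 6 stromal markers summed to 1.20 to 2.51 under KO and 2.40 to 4.10 CPM under WT over all kept cells, to 4.32 to 7.57 and 4.89 to 6.04 in stem-gated cells, and to 0.739 to 1.34 and 0.283 to 1.09 in granulocyte-monocyte-gated cells, with Col3a1 at 0 in each. The sums of macrophage, B cell and erythrocyte markers over all kept cells overlapped between the labels (0.406 to 7.54 and 0.946 to 2.11, 24.0 to 36.3 and 19.95 to 50.1, and 25.4 to 76.5 and 18.3 to 180 CPM). Their part in the Ror2 difference was not tested.

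The wider Wnt pathway was read from lists chosen with earlier results of these data known. Over all kept cells the label called 0 of 6 tested other receptors, 0 of 15 genes of receptor trafficking and turnover, 0 of 4 Wnt ligands and 0 of 3 secreted modulators; 1, 3, 1 and 1 of them reached an unadjusted p of 0.05, as 19.1% of all genes did, and 1.11% of all genes were called. Of the beta-catenin branch 1 of 20 was called, the repressor Tcf7l1 (-0.99 ± 0.18, SE, edgeR adjusted p = 0.0391). Of the polarity and calcium branches 2 of 19 were called: Nfatc2, a calcium-responsive transcription factor, lower by -0.98 ± 0.15, and Plcb1, a phospholipase, higher by 0.94 ± 0.18 (edgeR adjusted p = 0.0256 and 0.0434). Of the target genes 1 of 12 was called, the cyclin gene Ccnd1 (-1.01 ± 0.19, edgeR adjusted p = 0.0396). In Flt3-gated cells Ccnd1 was again lower (-1.23 ± 0.21, edgeR adjusted p = 0.00676), and in stem-gated cells its estimate was -0.94 ± 0.22 (edgeR adjusted p = 0.182). Of the beta-catenin, polarity and calcium branches 0 genes were called within the stem, Flt3, lymphoid or granulocyte-monocyte gate, where 0.0731 to 0.302% of all genes were. Tcf7l1 had -0.42 ± 0.24 in stem-gated cells and Nfatc2 -0.79 ± 0.21 in granulocyte-monocyte-gated cells (edgeR adjusted p = 0.999 and 0.169).

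Between states the same lists were counted, beside 28.9% of all genes called higher and 29.1% lower in the stem gate than in granulocyte-monocyte-gated cells. The stem gate was higher for 9 of 20 beta-catenin branch genes and lower for 0, led by Tcf7l2 (0.80 ± 0.11), Tcf7l1 (1.57 ± 0.23) and Bcl9l (0.70 ± 0.11). Of the polarity and calcium branches 8 of 17 were higher and 2 lower, among them Nfatc2 (1.37 ± 0.14) and Vangl1, a core polarity protein (1.35 ± 0.24). Of the trafficking and turnover genes 4 of 12 were higher and 6 lower. The other receptors Fzd8, Ptk7 and Reck were higher by 0.91 ± 0.26, 0.34 ± 0.11 and 0.39 ± 0.15. Against Flt3-gated cells, where 6.81% of all genes were called higher and 4.83% lower, 0 of 9 target genes were called higher and 4 lower, with a median of -0.20 and 2 positive estimates, and with Cd44 at -0.49 ± 0.09, Ccnd1 at -0.46 ± 0.14 and Apcdd1 at -0.87 ± 0.27. All differences named with a value here passed the edgeR test (adjusted p of 0.05 over all genes).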

How the data were processed

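Droplet single-cell RNA libraries of sorted LSK cells were analysed from the UMI counts per gene and barcode that the authors deposited; the submitters' processing notes name Cell Ranger 7.0.0, Seurat 4.4.0 and mm10, and no further step is stated in the sources used here. No label says whether libraries came from separate animals, so p-values measure the spread between libraries. The members and lists were chosen with earlier results of these data known.

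Barcodes with at least 1000 UMIs, 500 genes and at most 10% mitochondrial UMIs were kept. Doublets were not called; alternatives left out the 5% of cells with the most UMIs and cells passing more than 1 gate. Ordered gates gave 10 states, and raw counts were summed per library and state (at least 20 cells). CPM are UMIs per 1000000 UMIs of the sum. edgeR 4.0.16 (R 4.3.3; TMM, filterByExpr, robust quasi-likelihood F test, two-sided) was fitted with the barcode list and label, or with library and state, with Benjamini-Hochberg adjustment over all genes and a threshold of 0.05. Barcode lists were read from the opening 6 bases. Alternatives were DESeq2 1.42.0, no gene filter, a stricter cell filter (2000 UMIs, 1000 genes, 5% mitochondrial), no list term, list A alone, a replicate block, gates on thinned cells or with 1 more marker, and leaving out each library. On simulated counts for the label comparison of all kept cells (14598 genes tested) 62.0% of genes changed by log2 1 and 100% of those changed by log2 2 were recovered. For stem minus Flt3 it was 87.5% and 100% (11755 genes), and for label by state 22.2% and 81.4% (12197 genes). The simulated dispersion was 0.05, and changes were planted only in genes with more than 500 UMIs over all kept cells. In the simulations with states, every state had the makeup of Flt3-gated cells. The shares therefore do not cover Fzd5, with 339 UMIs, or receptors with few UMIs within gates. The label within single gates was not simulated.

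The 10 genes are named in every comparison that tested them. Other Wnt genes were drawn, per list and comparison, from the 3 called genes of smallest p, or the gene of smallest p where none was called, and not all of them are printed. The replicate numbers did not pair the libraries. For genes with a mean of at least 5 CPM, the 3 genes of highest r (log2 of CPM + 1, mean at least 10 CPM) are named. A count of 0 was read as allowing up to 3 UMIs.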

Additional observations from a re-analysis of the deposited data

Results flagged for a closer look

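In 3 of 50 groups of 4 WT libraries 1 library lay far from the others by Dixon's criterion at 95% confidence. Chance gives about 1 in 20 where the 4 libraries are alike. WT replicate 4 was the only list B library in each group, so that rate cannot be applied here. Fzd7 in stem-gated cells was lowest in WT replicate 4 with 1.33 CPM, beside 4.49 ± 0.33 (SD, n = 3) in the WT libraries of list A and 1.66 in the KO library of list B. Lrp6 in Flt3-gated cells was lowest in the same library with 23.5 CPM, beside 91.1 ± 3.56 (SD, n = 3) and 21.8. Ror2 in lymphoid-gated cells was highest in WT replicate 3 with 8.66 CPM, from 9 UMIs in 73 cells, while the other WT libraries had 0 to 1.13 CPM.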

How the results depend on the processing

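Over all kept cells 1 of the 10 genes was called, and 2 with DESeq2, 0 without the list as a term, 0 with the replicate block, 0 with the stricter cell filter and 0 to 1 with each library left out. For stem minus Flt3, 4 were called, and 1 with list A alone, 7 with gates on thinned cells, 7 with 1 more marker per gate and 2 to 4 with each library left out. Over all genes the label over all kept cells called 162, and 856 with DESeq2, 547 without a gene filter, 362 with list A alone, 1 with the replicate block, 0 without the list term (697 at an unadjusted p of 0.05) and 16 (without WT replicate 3) to 349. Stem minus Flt3 called 1473 genes, and 571 with list A alone, 907 without WT replicate 4, 4422 with gates on thinned cells and 2638 with 1 more marker. Label by state called 3, and 0 to 18 in the alternatives. Replicate numbers are only numbers here: same-number deviations correlated at 0.53, 0.72 and -0.36, and not every library correlated best with its own number. The remaining sign changes were of estimates that did not pass, in log2 units, and the cause was not tested. With list A alone, the sign turned at Fzd5 0.0179 over all kept cells, Lrp6 0.0412 in stem-gated cells, Lrp5 -0.32 in lymphoid-gated cells, Fzd3 0.0709 in granulocyte-monocyte-gated cells, Fzd6 0.39 and Fzd7 -1.34 for label by state. Without the list as a term, the sign turned at Fzd7 -0.0126 in stem-gated cells, Lrp5 -0.26 in lymphoid-gated cells. With the replicate block, the sign turned at Fzd3 -0.0641, Fzd5 -0.31, Fzd6 -0.0793 and Fzd7 -0.35 in stem-gated cells, Fzd3 -0.00819 in Flt3-gated cells, Fzd6 -0.00687 and Lrp5 -0.25 in lymphoid-gated cells. With the stricter cell filter, the sign turned at Fzd5 -0.0561 and Lrp6 0.0501 in stem-gated cells, Fzd6 -0.13 in lymphoid-gated cells, Lrp5 -0.00363 for stem minus granulocyte-monocyte, Lrp5 -0.00679 for cycling minus non-cycling, Fzd7 -0.0447 for label by state. With gates on thinned cells, the sign turned at Fzd6 -0.0326 and Fzd7 -0.29 in stem-gated cells, Lrp5 -0.0586 for cycling minus non-cycling, Fzd6 0.18, Fzd7 -0.0484, Ror1 0.0145, Ryk 0.23, Lrp5 -0.21 and Wls 0.0445 for label by state. With 1 more marker per gate, the sign turned at Fzd6 -0.21 and Fzd7 -0.0138 in stem-gated cells, Fzd6 0.0486 in Flt3-gated cells, Fzd6 -0.34 in lymphoid-gated cells, Fzd3 0.22, Fzd6 0.17 and Lrp5 0.0792 in granulocyte-monocyte-gated cells, Lrp5 -0.0939, Lrp6 -0.00863 and Wls 0.0692 for label by state. Without a gene filter, the sign turned at Lrp5 -0.0274 in lymphoid-gated cells, Fzd3 0.0428 in granulocyte-monocyte-gated cells. Without cells in more than 1 gate, the sign turned at Lrp5 -0.0597 in lymphoid-gated cells. Without the cells with the most UMIs, the sign turned at Lrp5 -0.00837 for stem minus granulocyte-monocyte, Fzd7 -0.0137 for label by state. With DESeq2, the sign turned at Fzd6 0.0357 and Fzd7 -0.21 for label by state. With 1 library left out in turn, ranges that crossed 0 were Fzd5 -0.47 to 0.0270 over all kept cells, Fzd5 -0.29 to 0.53, Ryk -0.0893 to 0.52 and Lrp6 -0.12 to 0.0703 in stem-gated cells, Fzd6 -0.16 to 0.10 in Flt3-gated cells, Fzd6 -0.22 to 0.80 and Lrp5 -0.33 to 0.29 in lymphoid-gated cells, Fzd3 -0.21 to 0.0983, Fzd5 -0.41 to 0.0200, Ryk -0.14 to 0.62 and Lrp5 -0.33 to 0.0455 in granulocyte-monocyte-gated cells, Lrp5 -0.0472 to 0.13 for stem minus granulocyte-monocyte, Lrp5 -0.00297 to 0.0997 for cycling minus non-cycling, Fzd6 -0.24 to 0.62, Fzd7 -0.67 to 0.73 and Lrp5 -0.0182 to 0.12 for label by state. Few UMIs per gene limit Fzd5, Fzd7, Ror1 and Ror2 within gates. Leaving out cells in more than 1 gate removed no stem-gated or Flt3-gated cell, since both gates come after the others.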

Other observations

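In each of the 4 lists without a label call over all kept cells, the gene of smallest p there had negative estimates, also in the stem and granulocyte-monocyte gates, without passing. These genes were picked by that p, and the gates hold part of the same cells. Over all kept cells, positive estimates were had by 2 of 6 other receptors, 10 of 15 trafficking and turnover genes, 1 of 4 ligands and 1 of 3 modulators. The list medians were -0.34, 0.06, -0.52 and -0.04 in that order. Reck, a co-receptor for Wnt7 ligands, had -0.44 ± 0.17, -0.17 ± 0.23 and -0.31 ± 0.23 over all kept, stem-gated and granulocyte-monocyte-gated cells (edgeR adjusted p = 0.213, 0.999 and 0.641), while Fzd8 of the same list had 0.28 ± 0.32 in stem-gated cells (edgeR adjusted p = 0.999). Caprin2, which promotes Lrp6 phosphorylation, had a log2 fold change of -0.74 ± 0.16 (SE) over all kept cells, -0.26 ± 0.17 in stem-gated, -0.62 ± 0.31 in Flt3-gated and -0.84 ± 0.22 in granulocyte-monocyte-gated cells (edgeR adjusted p = 0.0681, 0.999, 1.00 and 0.156). Wnt5b, a ligand of the branch without beta-catenin, had -1.01 ± 0.26, -0.69 ± 0.28 and -0.99 ± 0.26 over all kept, stem-gated and granulocyte-monocyte-gated cells (edgeR adjusted p = 0.102, 0.770 and 0.156). Apcdd1, a membrane inhibitor of Wnt signals, had -0.86 ± 0.26, -1.31 ± 0.38 and -0.83 ± 0.27 in the same order (edgeR adjusted p = 0.135, 0.348 and 0.258).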
